A study of Mus musculus with 6 samples.

Results

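The Hoxb cluster is the row of Hox genes on mouse chromosome 11, and the 9 genes described here are Hoxb1, Hoxb2, Hoxb3, Hoxb4, Hoxb5, Hoxb6, Hoxb7, Hoxb8 and Hoxb9. They were selected by name: every probe set whose platform annotation gives exactly 1 gene symbol, that of a member, was taken. This gave 65 probe sets for the 9 genes, of 318760 probe sets with 1 symbol and 22103 genes in all. No member was listed under an older synonym. The arrays measured total RNA of KLS cells from 3 wild-type and 3 Dnmt3a +/- samples of mouse, the latter with 1 intact copy of the DNA methyltransferase gene Dnmt3a. KLS cells are bone marrow cells sorted as Kit-positive, Sca-1-positive and negative for mature lineage markers, a fraction that holds the blood stem cells and early progenitors. The labels give no age, strain, sex or treatment, and they do not say how the allele was made. Separate animals are not named for the replicates either, so the p-values rest on the spread among these 6 samples, and some of it may be technical. In such bulk RNA, fewer cells that express a gene and less RNA per cell cannot be told apart.

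Hox genes encode homeodomain transcription factors that give cells a position along the body axis. Within a cluster they lie in the order in which they act, with Hoxb1 at the 3′ (anterior) end and Hoxb9 towards the 5′ (posterior) end, and neighbouring genes often share control elements. They are kept on by Trithorax-type complexes built around Kmt2a and kept off by Polycomb complexes, and their proteins bind DNA together with Meis and Pbx cofactors. In blood, Hox genes are active mainly in stem and progenitor cells and decline as cells mature. Hoxb4 is known for expanding stem cells when forced on, and Hoxb5 for marking long-term stem cells.

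Because Dnmt3a places methyl groups on the cytosine of CG pairs, the promoters of 2 members are shown with each CG in capitals. They are Hoxb4, whose mean was lower in Dnmt3a +/- cells, and Hoxb1, whose mean was higher, both chosen after their values were seen. Each is the 250 bases before the gene's start in RefSeq on assembly GRCm38.p6, 5′ to 3′ on the + strand, at chr11:96318017-96318266 for Hoxb4 and chr11:96365508-96365757 for Hoxb1.
Hoxb4: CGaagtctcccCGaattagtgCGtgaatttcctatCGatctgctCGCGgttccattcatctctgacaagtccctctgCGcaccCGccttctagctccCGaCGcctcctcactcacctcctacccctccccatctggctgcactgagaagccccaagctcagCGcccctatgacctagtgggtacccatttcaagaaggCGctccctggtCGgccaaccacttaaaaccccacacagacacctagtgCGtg
Hoxb1: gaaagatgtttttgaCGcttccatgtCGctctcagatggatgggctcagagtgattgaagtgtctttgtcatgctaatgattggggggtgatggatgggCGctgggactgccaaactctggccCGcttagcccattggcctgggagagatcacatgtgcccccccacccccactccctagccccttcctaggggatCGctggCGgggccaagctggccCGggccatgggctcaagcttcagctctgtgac
Hoxb4 held 14 CG pairs in this window and Hoxb1 held 7. Hoxb8, the third member with an entry in the table of promoters, held 12. The median over the 32851 promoter windows was 6, and 29.4% of them held at least as many as Hoxb4. The letters CCAAT, the core that NF-Y binds, were searched on both strands of the same 250 bases. They occurred 2 times for Hoxb1, 1 time for Hoxb8 and 0 times for Hoxb4, while 33.8% of all windows held at least 1. The palindrome CACGTG, which Usf factors bind, occurred in none of the 3 and in 6.02% of all windows. Such matches describe the letters only, and DNA methylation was not measured on these arrays.

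The values are log2 intensities, and a gene's value is the mean over its probe sets above the median level of all probe sets, which was 5.89. All 9 members passed this filter, with 50 of their 65 probe sets. Every difference is Dnmt3a +/- minus wild-type, tested with limma over 20059 genes and adjusted by the Benjamini-Hochberg method. The sort markers fitted the label, with Kit at 10.59 to 10.80 and Ly6a, which encodes Sca-1, at 8.30 to 8.66. Kit was slightly lower on every Dnmt3a +/- array, by a mean log2 difference of -0.11 (adjusted p = 0.718 in limma). Of the 12 lineage markers 10 had a value from all probe sets, and 8 of these lay below the 95th percentile of 1056 olfactory receptor genes, a group that blood cells do not use. Itgam and the haemoglobin gene Hbb-b1 lay above it. Of the 10, 7 had a higher and 3 a lower mean in Dnmt3a +/- cells. Summed over the 10 markers, the linear intensity was 1001 to 1212 on wild-type and 1030 to 1288 on Dnmt3a +/- arrays, and none was at 0. Hbb-b1 made up much of this sum, and the other 9 summed to 536 to 650 and 541 to 624. From the probe sets above the median level, 3 of 9 measured lineage markers were higher in Dnmt3a +/- cells at an unadjusted p under 0.05 in limma, against 2.92% of all genes. Named after their values were seen, they were the B-cell gene Cd79a, the macrophage gene Adgre1 and the T-cell gene Cd3e. Their differences were 0.85 (SE 0.33), 0.42 (SE 0.15) and 0.33 (SE 0.12), each with an adjusted p of 0.631 in limma. The genotypes overlapped for Cd79a alone. Of the 9 markers 5 had a higher and 4 a lower mean by this measure, with Itgam the lowest at -0.44. From all probe sets Cd79a was at 0.71, Cd3e at 0.21 and Adgre1 at 0.07, and the genotypes overlapped for all 3. The part of these markers in the Hoxb values was not tested. Of 6 measured stem and progenitor markers 5 had a lower mean in Dnmt3a +/- cells (median -0.10), beside 54.3% of all genes. Flt3 was at -0.32 and Cd34 at -0.23. At an unadjusted p under 0.05 in limma there were 0 of 6, beside 7.49% of all genes. Slamf1 alone had a higher mean, at 0.02. From all probe sets Slamf1 was at -0.30, and it lay at percentile 78.9 of the olfactory receptor genes. Dnmt3a itself was lower on every Dnmt3a +/- array (8.20 to 8.38) than on any wild-type array (8.50 to 8.70), with an adjusted p of 0.631 in limma. Dnmt3a +/- replicate 2 stood apart from the rest, with a mean correlation across genes of 0.904 with the other arrays, where those had 0.938 to 0.949.

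No Hoxb gene passed the test for a difference between the genotypes. Of the 9 members 0 passed at adjusted p 0.05, and the smallest adjusted p was 0.652, for Hoxb4 (limma). No gene of the whole table passed either, so the background share was 0%. At an unadjusted p under 0.05 in limma there were again 0 of 9 members, where 7.49% of all genes had such a p (2.92% higher and 4.57% lower). Of the members 5 had a higher mean and 4 a lower mean in Dnmt3a +/- cells, and among all genes 54.3% had a lower one. The median difference was 0.09 over the members and -0.02 over all genes. In none of the 9 were the genotypes free of overlap, which 15.8% of all genes were (6.74% higher and 9.05% lower). The 95% confidence intervals of the fold had their lowest bound at 0.622 (Hoxb5) and their highest at 1.40 (Hoxb9). Changes within a gene's own interval are not resolved by 3 arrays a genotype.

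**Figure D1:**
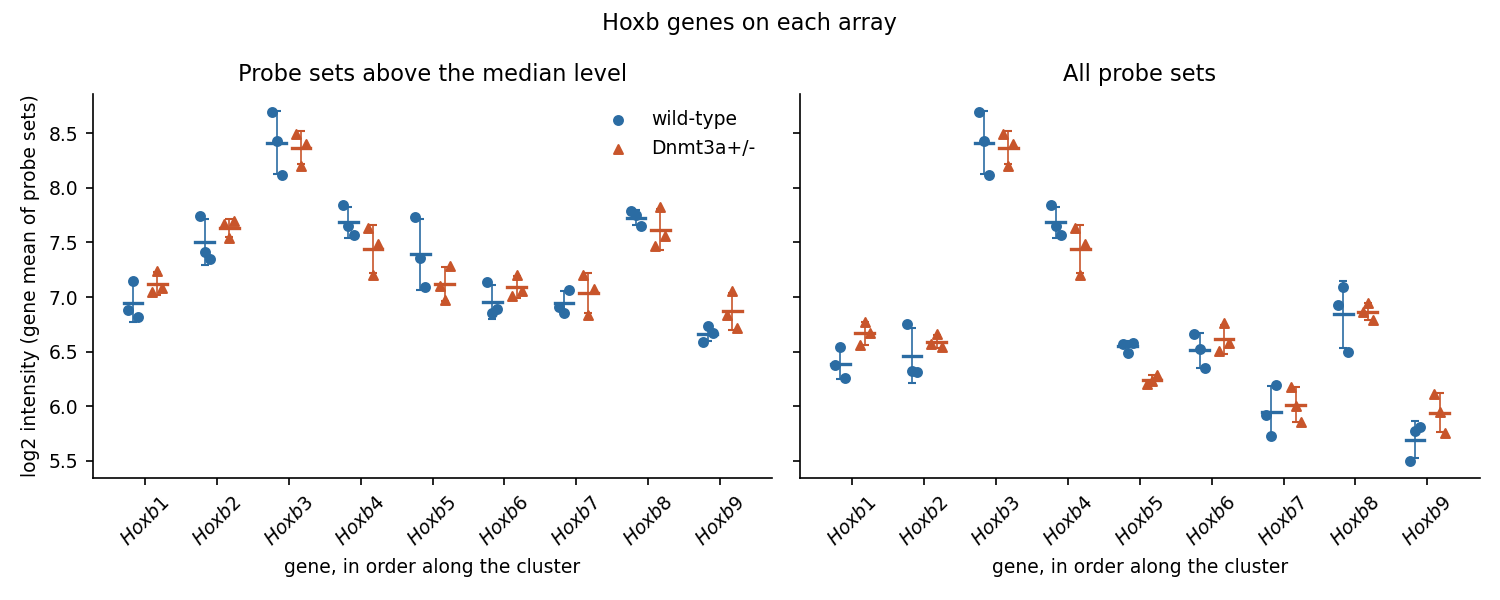
Log2 intensity of each Hoxb gene on each array, from the probe sets above the median level (left) and from all probe sets (right). Circles are wild-type and triangles Dnmt3a +/- arrays, horizontal bars are means and error bars SD (n = 3). With all probe sets the 3 Dnmt3a +/- arrays of Hoxb5 lie below and those of Hoxb1 above all wild-type arrays.

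Along the cluster, the differences formed a run of higher means at the anterior end, lower means in the middle and mostly higher means beyond. Hoxb1 and Hoxb2 were at 0.18 and 0.13, Hoxb3, Hoxb4 and Hoxb5 at -0.05, -0.25 and -0.27, Hoxb6 and Hoxb7 at 0.13 and 0.09, Hoxb8 at -0.11 and Hoxb9 at 0.20. Each of these 9 intervals included 0, so the run is a description of the means. The levels of different genes are not ranked against each other, because probe sets differ in how strongly they bind. The olfactory receptor genes had a median of 4.31 and a 95th percentile of 6.39 from all probe sets, and 7 members lay above that 95th percentile. Hoxb5, Hoxb2, Hoxb1 and Hoxb6 did so narrowly, at percentiles 95.1, 95.7, 95.8 and 96.0 of these receptor genes. Hoxb5 read 6.20 to 6.29 on the Dnmt3a +/- arrays, below 6.39. Hoxb8, Hoxb4 and Hoxb3 stood at percentiles 97.9, 99.3 and 99.9. Hoxb7 and Hoxb9 lay below the 95th percentile as means of all their probe sets. Those probe sets ran from 4.33 to 7.54 for Hoxb7 and from 3.35 to 7.41 for Hoxb9, so some were well above the mean. The level of Hoxb8 rested on 1 probe set at 10.95, with the others at 6.05, 6.01 and 4.39. Hoxb3 and Hoxb4 were also the only members with all their probe sets above the median level.

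**Figure D2:**
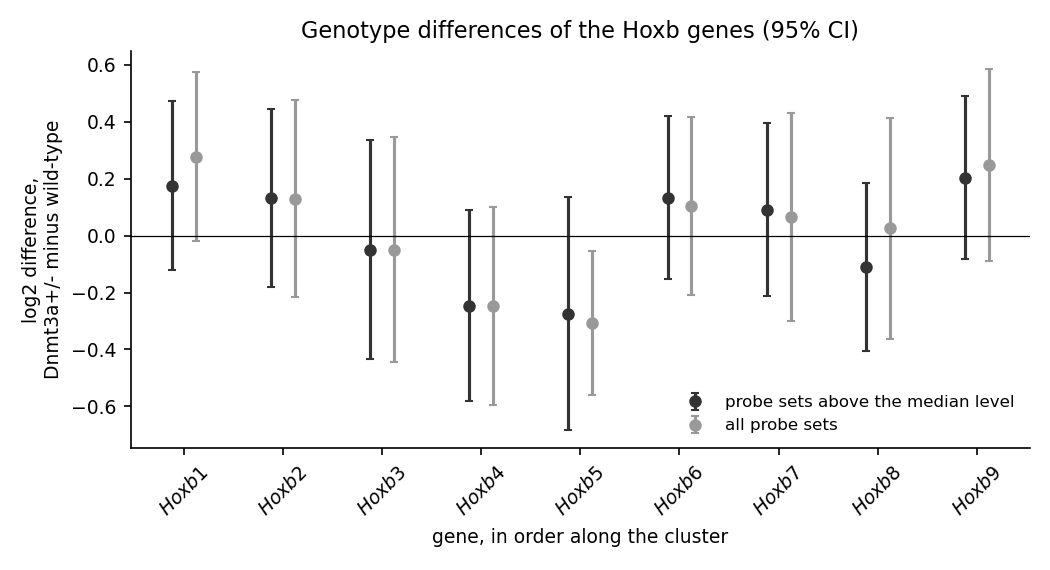
Difference between genotypes (log2, Dnmt3a +/- minus wild-type) of each Hoxb gene with its 95% confidence interval from limma, from probe sets above the median level (black) and from all probe sets (grey). Only the interval of Hoxb5 from all probe sets, -0.56 to -0.06, leaves out 0, and its adjusted p was 0.668.

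At the anterior end, Hoxb1, a patterning gene of the hindbrain, read 6.88, 7.14 and 6.82 on the wild-type arrays and 7.04, 7.24 and 7.08 on the Dnmt3a +/- arrays. The highest wild-type array lay above 2 of the 3 Dnmt3a +/- arrays, so the genotypes overlapped. The means were 6.95 ± 0.17 and 7.12 ± 0.11 (SD, n = 3), with a difference of 0.18 (SE 0.13). With the dim probe sets added, Hoxb1 read 6.38, 6.54 and 6.26 against 6.56, 6.77 and 6.67. The genotypes then did not overlap, with Dnmt3a +/- higher by 0.28 (SE 0.13), an adjusted p of 0.668 in limma and an exact permutation p of 0.1, the smallest that 3 against 3 arrays can give. By this measure Hoxb1 and Hoxb5 were the 2 members of 9 without overlap, against 15.2% of all genes (6.26% higher and 8.96% lower). With the median of its probe sets in place of their mean, the Hoxb1 difference was 0.01.

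Hoxb2, which acts next to Hoxb1 in the hindbrain, read 7.74, 7.41 and 7.35 on the wild-type arrays and 7.67, 7.54 and 7.70 on the Dnmt3a +/- arrays. Wild-type replicate 1 was the highest of the 6 arrays and the other wild-type arrays were the lowest. The difference was 0.13 (SE 0.14), and 0.25 without that array. Hoxb3, a gene active in early blood progenitors, read 8.70, 8.43 and 8.12 on the wild-type arrays and 8.50, 8.20 and 8.41 on the Dnmt3a +/- arrays. The Dnmt3a +/- values all fell inside the wild-type range, and the difference was -0.05 (SE 0.17). Its sign turned to 0.083 after cyclic loess and to 0.091 without wild-type replicate 1.

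In the middle of the cluster, Hoxb4 read 7.85, 7.65 and 7.57 on the wild-type arrays and 7.64, 7.20 and 7.48 on the Dnmt3a +/- arrays. Dnmt3a +/- replicate 2 was the lowest array, and Dnmt3a +/- replicate 1 lay between wild-type values. The means of 7.69 ± 0.14 and 7.44 ± 0.22 (SD, n = 3) differed by -0.25 (SE 0.14, 95% confidence interval -0.58 to 0.09), a fold of 0.843. The exact permutation p was 0.2. Leaving out the outlying array, Dnmt3a +/- replicate 2, gave -0.13, with wild-type replicate 1 left out it was -0.17, and with array weights it was -0.08.

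Hoxb5 read 7.73, 7.35 and 7.09 on the wild-type arrays and 7.10, 6.97 and 7.28 on the Dnmt3a +/- arrays. Wild-type replicate 1 was the highest, and wild-type replicate 3 lay between Dnmt3a +/- values. The means were 7.39 ± 0.32 and 7.12 ± 0.16 (SD, n = 3), and the difference was -0.27 (SE 0.18, adjusted p = 0.665 in limma). Without wild-type replicate 1 it shrank to -0.10. From all 6 probe sets the gene read 6.57, 6.49 and 6.58 on the wild-type arrays and 6.20, 6.23 and 6.29 on the Dnmt3a +/- arrays. In that measure each Dnmt3a +/- array lay below each wild-type array, the difference was -0.31 (SE 0.11), and the SDs were 0.05 and 0.04. It was the only member with an unadjusted p under 0.05 in limma (0.0229, adjusted p = 0.668), where 7.32% of all genes had such a p (2.95% higher and 4.38% lower). From all probe sets 6 members had a higher and 3 a lower mean, and 54.2% of all genes a lower one. The small spread arose while single probe sets spread widely: the dimmest, 4743975, read 2.10 on wild-type replicate 1, where 5541850 read 8.55. From the probe sets above the 75th percentile of level the Hoxb5 difference was 0.0018.

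Hoxb6, which is active in early haematopoietic development, read 7.14, 6.85 and 6.89 on the wild-type arrays and 7.01, 7.21 and 7.05 on the Dnmt3a +/- arrays. The genotypes overlapped through wild-type replicate 1, and the difference was 0.13 (SE 0.12). Hoxb7 read 6.91, 6.85 and 7.07 against 7.20, 6.83 and 7.08, a difference of 0.09 (SE 0.13). Its highest and its lowest array were both Dnmt3a +/-.

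Hoxb8, which blocks maturation of myeloid progenitors when it is forced on, read 7.79, 7.75 and 7.65 on the wild-type arrays and 7.47, 7.83 and 7.56 on the Dnmt3a +/- arrays. Dnmt3a +/- replicate 2 was the highest and the other Dnmt3a +/- arrays were the lowest. The difference was -0.11 (SE 0.13), and from all 4 probe sets it was 0.03. Hoxb9, the most posterior of the row, read 6.59, 6.73 and 6.67 on the wild-type arrays and 6.83, 7.06 and 6.72 on the Dnmt3a +/- arrays. Only Dnmt3a +/- replicate 3 lay within the wild-type values. The means of 6.67 ± 0.07 and 6.87 ± 0.17 (SD, n = 3) differed by 0.20 (SE 0.12, adjusted p = 0.658 in limma), and by 0.11 without Dnmt3a +/- replicate 2.

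The arrays of a genotype were compared over the cluster as a whole. Relative to each gene's wild-type mean, the median of the 9 members was 0.16, -0.04 and -0.12 on the wild-type arrays and 0.08, 0.04 and 0.05 on the Dnmt3a +/- arrays. All 3 Dnmt3a +/- medians fell inside the wild-type range. Among the wild-type arrays, replicate 1 was the highest for 6 of 9 members and replicate 3 the lowest for 6 of 9. Dnmt3a +/- replicate 2 was the highest of all 6 arrays for 4 members (Hoxb1, Hoxb6, Hoxb8 and Hoxb9) and the lowest for 3 (Hoxb4, Hoxb5 and Hoxb7). The range over the 6 arrays was 0.36 to 0.76 on the log2 scale, narrowest for Hoxb6 and widest for Hoxb5.

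Single probe sets showed how unevenly the gene differences were made up. Of the 50 tested among 628415 probe sets, 0 passed at adjusted p 0.05 (limma, smallest adjusted p = 0.799), as in the whole table (0%). At an unadjusted p under 0.05 in limma there were 2 of 50, where 6.21% of all probe sets had such a p. In 9 of the 50 the genotypes did not overlap, 6 higher and 3 lower, against 12.4% of all probe sets (6.31% higher and 6.1% lower). The probe sets of a gene share its arrays and RNA and are no replicates, and their places in the gene were not analysed here.

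**Figure D3:**
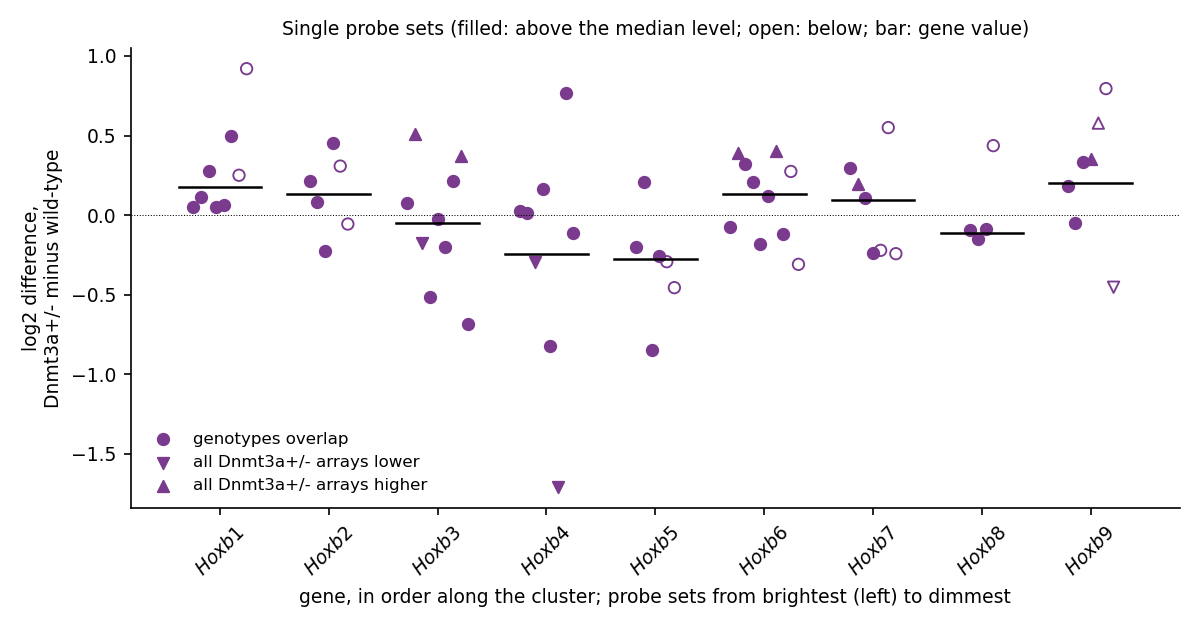
Difference between genotypes (log2) of each of the 65 Hoxb probe sets, sorted within a gene from the brightest to the dimmest. Filled symbols lie above the median level, triangles mark probe sets whose genotypes do not overlap, and bars are the gene values. In Hoxb4 a single probe set lies at -1.71 while the others lie between -0.82 and 0.76.

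The largest difference belonged to Hoxb4 probe set 5317896. It read 7.52, 7.94 and 6.89 on the wild-type arrays and 6.68, 4.53 and 6.01 on the Dnmt3a +/- arrays, and all Dnmt3a +/- arrays lay below all wild-type arrays. The difference was -1.71 (SE 0.55, adjusted p = 0.799 in limma). Without this probe set the Hoxb4 difference was -0.04, so it carried most of the gene's value. The brightest Hoxb4 probe set, 4496223, had a difference of 0.02 (SE 0.24), and 4 of the 8 were on each side of 0.

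Hoxb3 had probe sets without overlap in both directions. Probe set 4328982 read 10.13, 10.03 and 10.06 on the wild-type arrays and 10.69, 10.70 and 10.36 on the Dnmt3a +/- arrays, higher on every Dnmt3a +/- array by a mean of 0.51 (SE 0.18, adjusted p = 0.799 in limma). Probe set 5580967 read 8.44, 8.42 and 8.39 against 8.32, 8.19 and 8.20, lower on every Dnmt3a +/- array by a mean log2 difference of -0.18 (SE 0.16). The brightest of the gene, 5126208, at a mean of 12.91 brighter than 99.9% of all probe sets, had a difference of 0.07 (SE 0.20).

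For Hoxb5, 3 of 4 tested probe sets were on the lower side, from -0.85 to 0.21. The lowest, 5541850, read 8.55 on wild-type replicate 1 and between 6.30 and 7.15 on the others, and without it the gene difference was -0.08. The brightest, 5551039, differed by -0.20 (SE 0.21). All 6 tested probe sets of Hoxb1 were on the higher side (0.05 to 0.49), with the brightest, 4593553, at 0.05 (SE 0.25). All 3 of Hoxb8 were on the lower side (-0.15 to -0.09). Its level came mainly from probe set 4763874, with a mean of 10.95 and a difference of -0.10 (SE 0.20), while the others lay at about 6.0, just above the median level.

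The brightest probe sets of the other members lay on both sides of 0. For Hoxb2 it was 5482281, at 0.22 (SE 0.22), for Hoxb6 4937872, at -0.07 (SE 0.20), for Hoxb7 4979357, at 0.30 (SE 0.20), and for Hoxb9 4706736, at 0.18 (SE 0.19). Hoxb6 had 2 probe sets that were higher without overlap, and Hoxb7 and Hoxb9 had 1 each. The threshold on level split some genes closely: Hoxb9 probe set 5142043, at 5.90, was just inside, and Hoxb5 probe set 4978043, at 5.61, was the nearest member probe set outside.

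Of 12 other transcripts listed for the locus, Hoxb13 and non-coding RNAs, 3 had a value from probe sets above the median level. All 3 had overlapping genotypes and a higher mean in Dnmt3a +/- cells. Hoxb13, which lies apart from the row at its 5′ end, differed by 0.12 (SE 0.16), the antisense RNA Hoxb5os by 0.02 (SE 0.15) and the non-coding Gm53, beyond Hoxb9, by 0.07 (SE 0.12). Hoxb5os spans Hoxb5 and Hoxb6 in RefSeq, and the strand its probe sets read is not stated, so its values may mix with theirs. Leaving Hoxb13 aside, the 6 nearest measured genes beyond Hoxb9 (Gm53, Ttll6, Calcoco2, Atp5g1, Ube2z and Snf8) had differences from -0.33 to 0.17 with a median of 0.09. The 6 beyond Hoxb1 (Skap1, Snx11, Cbx1, Nfe2l1, Copz2 and Cdk5rap3) had differences from -0.38 to 0.05 with a median of -0.05. In none of these 12 genes were the genotypes free of overlap, beside 15.8% of all genes. At an unadjusted p under 0.05 in limma there were 0 of 12, beside 7.49% of all genes.

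The other Hox clusters were described beside the Hoxb row by counts. Of 9 measured Hoxa genes 3 had a higher and 6 a lower mean in Dnmt3a +/- cells (median -0.04), of 8 Hoxc genes 6 and 2 (median 0.14), and of 8 Hoxd genes 5 and 3 (median 0.03). None of these 25 genes passed at adjusted p 0.05, and 0 had an unadjusted p under 0.05 in limma, beside 7.49% of all genes. The Hoxa genes with the smallest p were Hoxa3 at -0.21 (SE 0.14) and Hoxa7 at 0.12 (SE 0.13). For Hoxc they were Hoxc9 at 0.34 (SE 0.21) and Hoxc10 at -0.26 (SE 0.18). For Hoxd they were Hoxd9 at 0.23 (SE 0.11) and Hoxd13 at -0.35 (SE 0.19). From all probe sets Hoxc9, Hoxc10, Hoxd9 and Hoxd13 lay at percentiles 74.1, 76.0, 88.4 and 81.8 of the olfactory receptor genes, below the 95th. The differences of Hoxc10 and Hoxd13 rested on 1 probe set each. Hoxd9 and Hoxc13 were higher on every Dnmt3a +/- array, 2 of 25 genes beside 6.74% of all genes.

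Among the 8 measured cofactors of Hox proteins, Meis2 read 7.41, 7.33 and 7.35 on the wild-type arrays and 7.78, 7.77 and 7.75 on the Dnmt3a +/- arrays. Its arrays of one genotype lay close together and apart from the other, with a difference of 0.40 (SE 0.10, adjusted p = 0.631 in limma). The Meis2 value rested on 8 of 28 probe sets. From all probe sets Meis2 lay at percentile 74.4 of the olfactory receptor genes and Meis3 at 93.5, both below the 95th. Meis3 was also higher on every Dnmt3a +/- array, by 0.33 (SE 0.13, from 3 of 6 probe sets), and Pbx2 was lower on every one. These 3 of 8 without overlap stand beside 15.8% of all genes, and the 2 Meis genes were the 2 of 8 at an unadjusted p under 0.05 in limma, beside 7.49%. The list had a median of 0.05, with 5 genes higher and 3 lower, and 0 passed at adjusted p 0.05.

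Of 23 genes that help keep Hox genes on, 16 had a lower mean in Dnmt3a +/- cells (median -0.08), where 54.3% of all genes did (median -0.02). Of the 23, 5 were lower without overlap, beside 9.05% of all genes. These 5, named after their values were seen, were Kmt2a, Kdm6a, Kdm6b, Usf2 and Men1, the last a partner of Kmt2a at -0.22 (SE 0.11). Ash2l, a shared subunit of these complexes, stood at -0.36 (SE 0.16) with overlap. Of 16 measured Polycomb genes 12 had a lower mean (median -0.08). Lower without overlap were 3 of the 16, Ring1, Phc3 at -0.33 (SE 0.12) and Ezh1 at -0.31 (SE 0.14), again beside 9.05% of all genes. At adjusted p 0.05 in limma 0 genes of either list passed. At an unadjusted p under 0.05 in limma there were 0 of 23 activators and 1 of 16 Polycomb genes, Phc3, beside 7.49% of all genes.

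The profile over the 6 arrays was compared with that of every other gene by Pearson correlation, as a description over 6 points that share their arrays. The 3 most similar genes were Prkra, Nap1l4 and Sec24a for Hoxb4, Nfe2l2, 5430402E10Rik and H2-DMb2 for Hoxb5, and Ccl1, Nrg2 and Prl for Hoxb3. The nearest were Tbc1d21 for Hoxb1, Insyn2a for Hoxb2, Tmod2 for Hoxb6, Foxa1 for Hoxb7, 2210420H20Rik for Hoxb8 and Ccl17 for Hoxb9. Over all 27 such genes the coefficient was 0.972 to 0.999, a height that the choice of the best among 20059 genes over 6 arrays brings with it. Of the 36 pairs of members 20 had a positive coefficient, the highest was 0.826 for Hoxb3 with Hoxb5 (at rank 344 for Hoxb3), and the lowest was -0.956 for Hoxb7 with Hoxb8.

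**Figure D4:**
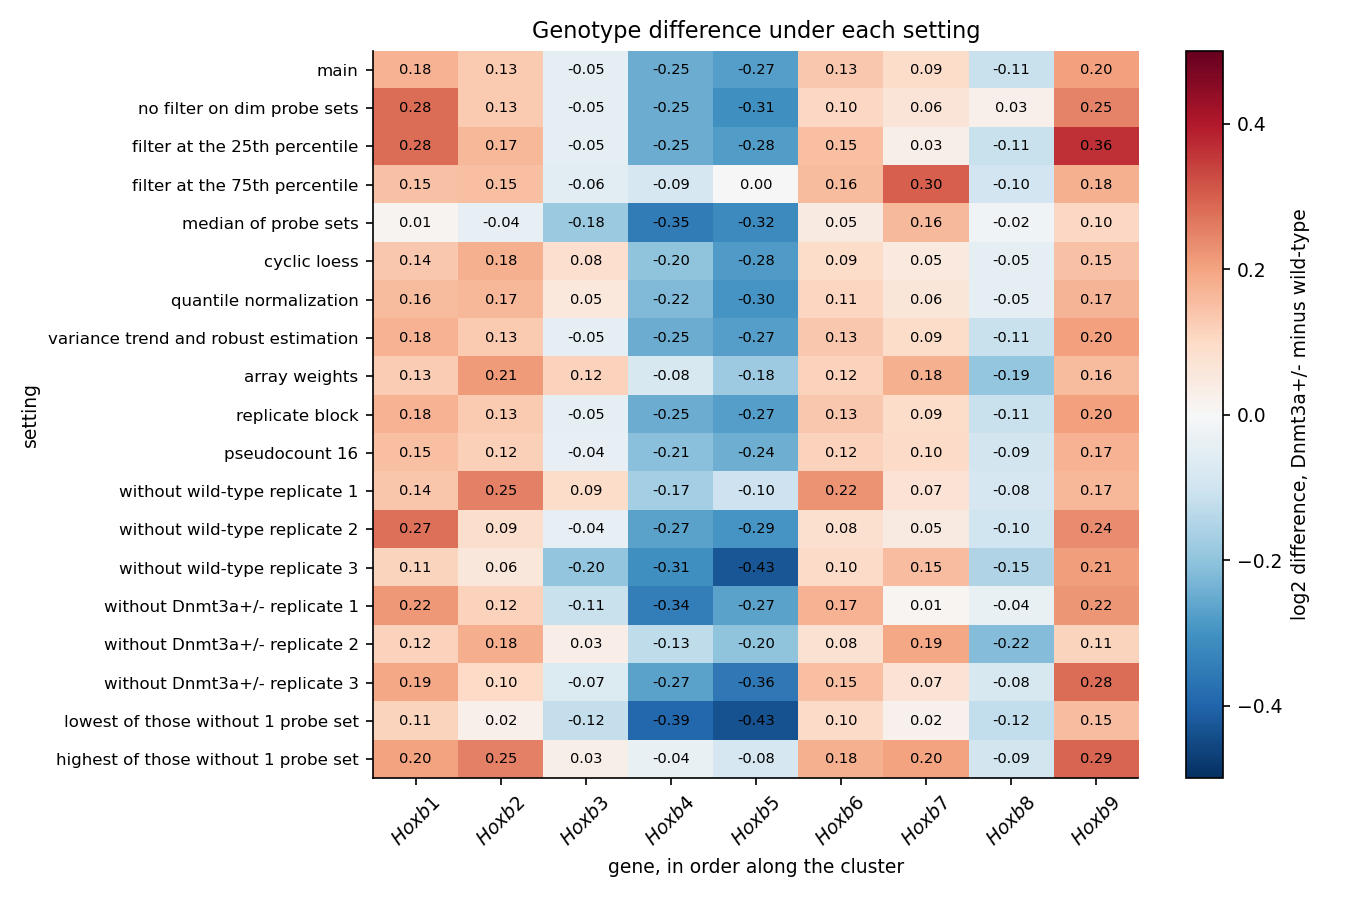
Genotype difference (log2, Dnmt3a +/- minus wild-type) of each Hoxb gene (columns) under each setting (rows, the first being the values given above), with blue for lower and red for higher in Dnmt3a +/- cells; the colour scale runs from -0.5 to 0.5. Hoxb4 stayed below 0 in all rows, while Hoxb3 changed sign in several.

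No member passed at adjusted p 0.05 in limma under any setting run. Over 18 other settings a gene, 153 of 162 differences kept the sign of the value above and 9 did not, 6 of them for Hoxb3. Hoxb1, Hoxb4, Hoxb6, Hoxb7 and Hoxb9 kept their sign in all 18. The variance model and the replicate block leave each difference as it is, so no sign could turn under them. The same held for Hoxb3 and Hoxb4 with a lower filter or none, because all their probe sets were already in use. It also held for Hoxb8 with the filter at the 25th percentile. Of 144 tests under other settings 0 passed, with adjusted p from 0.436 to 0.997 (limma).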

How the data were processed

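RNA of sorted KLS cells was amplified from 20 ng as whole-transcript cDNA and hybridised, labelled with biotin, to 1-colour arrays, per the labels' protocols. The authors deposited normalized linear intensity values made with RMA in Partek, per the submitters' processing notes, with versions and genome build not given in the sources used here. The intensities ran from 1.84 to 22239 with array medians of 59.8 to 61.6, so log2 was taken with no pseudocount. Quantile normalization within RMA hides a change shared by most genes. There is no read depth on an array, so precision depends on how many there are.

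Of 1256831 probe sets, 25.4% (318760) were listed with 1 gene symbol, 6684 with several and 931387 with none. Of 22296 symbols, 18006 were current in the RefSeq table of GRCm38.p6, 4227 were updated through an older name and 63 were kept. Gene values average the probe sets whose mean over all arrays exceeded the median (20059 genes), or all probe sets (22103 genes). The test was limma's moderated fit (version 3.58.1, R 4.3.3, no covariate) of Dnmt3a +/- against wild-type over all genes or 628415 probe sets, with Benjamini-Hochberg adjustment. Exact two-sided permutation tests of single genes cannot give a p under 0.1. The fit was tested on simulated data with added shifts far larger than the Hoxb differences, so that test does not show whether differences of this size would be found. Members, lists and the rule for named genes were chosen with earlier results of these data known. The rule took all members, the transcripts of the locus, the 2 genes of each list with the smallest p, the 6 nearest measured genes on either side, each member's brightest probe set and those with a low p, and the 3 genes most like each member. Other settings changed the filter, the summary of probe sets, the scaling, the variance model, the weights, the block, the pseudocount and the arrays or probe sets used.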

Additional observations from a re-analysis of the deposited data

How the results depend on the processing

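The sign turned in 9 of the 162 member differences under other settings, all of them for Hoxb2, Hoxb3, Hoxb5 or Hoxb8. Hoxb3 (-0.05) became 0.083 after cyclic loess, 0.052 after quantile normalization, 0.12 with array weights and 0.030 without the probe set that lowered it most. Hoxb2 (0.13) became -0.041 with the median of probe sets, Hoxb5 (-0.27) 0.0018 with the filter at the 75th percentile, and Hoxb8 (-0.11) 0.026 with no filter. The median over members, 0.09 above, was -0.02 with the median of probe sets and 0.011 to 0.091 with 1 array left out. The medians of the wild-type arrays had an SD of 0.14 (n = 3), which is a spread of single arrays and not the error of this difference. Leaving out 1 array gave differences of 0.11 to 0.27 for Hoxb1, 0.06 to 0.25 for Hoxb2, -0.20 to 0.091 for Hoxb3 (above 0 without wild-type replicate 1 or, at 0.035, without Dnmt3a +/- replicate 2), -0.34 to -0.13 for Hoxb4, -0.43 to -0.10 for Hoxb5, 0.08 to 0.22 for Hoxb6, 0.01 to 0.19 for Hoxb7, -0.22 to -0.036 for Hoxb8 and 0.11 to 0.28 for Hoxb9. The cause was not tested. The leave-one-probe-set setting was chosen after seeing the data.

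The count of genes at adjusted p 0.05 was 0 in limma under all settings. At an unadjusted p under 0.05 the 1502 genes became 2593 with array weights and 925 to 1928 with 1 array left out (925 without wild-type replicate 2, 989 without wild-type replicate 3). The 2 Hoxb probe sets at that p became 1 to 4 with 1 array left out (1 without wild-type replicate 2 or Dnmt3a +/- replicate 2, 4 without wild-type replicate 3). Deviations of same-numbered arrays correlated across genes at -0.05, -0.09 and 0.11, and those of differently numbered arrays at -0.17 to 0.17. With 3 arrays a genotype these values cannot decide whether the replicate numbers pair the arrays. With the replicate number as a block, 1274 genes and 1 Hoxb probe set had an unadjusted p under 0.05 in limma, and 0 genes passed after adjustment. A cyclic loess or quantile step moved the median of all genes from -0.02 to 0.004 and 0.003.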
